A study of Mus musculus with 11 samples.

Results

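The RNA of 9 genes tied to fuel choice was read in mouse pancreatic islets, the hormone-secreting cell clusters of the pancreas. These were the pyruvate dehydrogenase kinases *Pdk1*, *Pdk2*, *Pdk3* and *Pdk4*, the fatty acid oxidation genes *Cpt1a* and *Acadm*, the receptor *Ppara*, and its known targets *Ucp2* and *Angptl4*. The libraries hold RNA only, so protein, enzyme activity and fuel use were not measured here. The genes were chosen by their symbols, in a list drawn up when the values of these libraries were already known, and all 9 were found among the 55536 genes of each count table. No fold change and no threshold entered the choice. Levels are given as CPM, the usual unit of a read count divided by the size of its library, with library sizes scaled by the TMM method so that most genes are level between libraries. Adjusted p-values are from the quasi-likelihood test of edgeR, adjusted over all genes tested by the Benjamini-Hochberg method. Since the list was not drawn up blind to these values, they describe the fits and are not independent evidence on the list.

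All mice were wild-type C57BL/6J females that entered the study at 9 weeks of age. Multipara mice had completed 3 pregnancies and were studied 3 weeks after the last delivery, with their pups taken away, and virgin mice were their littermates. S-961, a peptide that blocks the insulin receptor, was injected into the peritoneal cavity at 100 nmol/kg, 2 times a day for 3 days. Of the 11 bulk RNA-seq libraries, 7 were from S-961 mice (3 virgin, 4 multipara by their labels) and 4 from mice without treatment (2 virgin, 2 multipara). The sources used here do not say whether a library held the islets of 1 mouse or of several. The p-values therefore measure the spread between these libraries. The comparisons set islet RNA side by side with and without insulin receptor blockade, and with and without earlier pregnancies. The sources used here name no vehicle injection for untreated mice, and do not say whether both sets of islets were handled together. An effect of S-961 therefore cannot be told apart from an effect of injection, cohort or batch.

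Pyruvate dehydrogenase turns the pyruvate made from glucose into acetyl-CoA inside mitochondria. The 4 Pdk enzymes phosphorylate and switch off this complex, so that less glucose carbon enters the citric acid cycle and more fatty acid is burned in its place. *Cpt1a* encodes the carnitine palmitoyltransferase that lets long-chain fatty acids into mitochondria, and *Acadm* encodes the medium-chain acyl-CoA dehydrogenase of β-oxidation. *Ppara* encodes a nuclear receptor that senses fatty acids and switches on *Cpt1a*, *Acadm*, *Pdk4* and *Angptl4* in fasting liver. *Ucp2* encodes a carrier of the inner mitochondrial membrane that is abundant in β cells, and *Angptl4* encodes a secreted inhibitor of lipoprotein lipase. *Pdk4* is known as the kinase that rises with fasting and with low insulin signalling in muscle, heart and liver.

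Libraries held 22028507 to 32234146 counts (median 29866486). Insulin RNA (*Ins1* plus *Ins2*) made up 35.3% to 41.4% of an untreated library and 13.2% to 20.7% of an S-961 library. The 9 β cell markers summed to 121362 to 239969 CPM with S-961 and to 442738 to 599873 CPM without it, and none was at 0 in a library. Most of this sum was *Ins2*, *Ins1* and *Iapp*, at means of 185281, 74195 and 27342 CPM over all libraries. Taken singly, 3 of the 9 were higher with S-961 at an adjusted p under 0.05, 4 were lower and 2 did not pass. Of all genes tested, 54.8% passed. In bulk RNA, fewer cells of a type and less RNA per cell cannot be told apart. The 8 acinar markers, genes of the digestive enzyme cells that surround islets, summed to 1455 to 10107 CPM with S-961 and to 53.0 to 116 CPM without it. The adipocyte markers were near 0, with *Adipoq* at 0 to 0.13 CPM over all libraries.

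The parity labels were checked with *Lrrc55* and *Matn2*, genes known to rise in islets of pregnancy, in every library. *Lrrc55* was at 0.72 and 0.85 CPM in untreated virgin 1 and 2 and at 24.1 and 22.3 CPM in untreated multipara 1 and 2. With S-961 the order was turned, with 7.56, 6.83 and 5.47 CPM in virgin 1 to 3 and 0.61, 0.33, 1.93 and 4.46 CPM in multipara 1 to 4. *Matn2* was at 21.2 and 19.7 CPM in untreated virgin libraries and at 49.8 and 48.8 CPM in untreated multipara libraries, against 132, 144 and 152 CPM in virgin S-961 and 42.4, 60.6, 26.6 and 116 CPM in multipara S-961. The proliferation gene *Mki67* was at 95.4, 67.1 and 43.0 CPM in multipara S-961 1 to 3, at 3.95 CPM in multipara S-961 4, and at 3.44, 13.9 and 3.12 CPM in virgin S-961 1 to 3. In all 3 genes multipara S-961 4 was nearer to the libraries labelled virgin S-961 than to the other multipara S-961 libraries. The log2 difference of multipara from virgin was -1.83 with S-961 (SE 0.71, adjusted p = 0.45) and 4.92 without it (SE 0.18, adjusted p = 0.056) for *Lrrc55*. For *Matn2* it was -1.21 (SE 0.40, adjusted p = 0.37) and 1.31 (SE 0.09, adjusted p = 0.44). The paper that reported these libraries lists *Matn2* and *Lrrc55* as raised, and cell cycle genes as lowered, in S-961 multipara islets. By the labels used here, *Lrrc55* and *Matn2* ran the other way, as did *Mki67* in multipara S-961 1 to 3. Libraries were kept in the groups of their labels, and the direction of each parity comparison with S-961 rests on those labels.

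The 9 genes spanned a wide range of levels. Levels of different genes were compared as CPM per kb of transcript, over all 11 libraries. *Ucp2* was the most abundant at 56.8 ± 13.1 CPM per kb (SD, n = 11), and its lowest library, 41.8 CPM per kb, was above every library of the other 8 genes. *Cpt1a* followed at 13.5 ± 1.86 CPM per kb (SD, n = 11). *Acadm* at 10.1 ± 1.35, *Pdk2* at 9.12 ± 1.23 and *Pdk4* at 8.88 ± 2.96 CPM per kb (SD, n = 11 each) came next. *Cpt1a* overlapped *Acadm* in range, and these 3 genes overlapped each other. *Pdk3* at 5.97 ± 0.57 and *Pdk1* at 4.80 ± 0.58 CPM per kb (SD, n = 11 each) also overlapped. *Pdk1* was below *Pdk3* in virgin S-961 1 (4.90 and 5.67 CPM per kb) and above it in virgin S-961 2 (5.84 and 5.67 CPM per kb). *Angptl4* at 0.68 ± 0.30 CPM per kb lay below every library of the genes above it, and *Ppara* at 0.082 ± 0.094 CPM per kb (SD, n = 11 each) was lowest, with an overlap between these last genes. Within the kinase family, *Pdk4* had the widest range, from 5.08 to 13.1 CPM per kb.

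**Figure D1:**
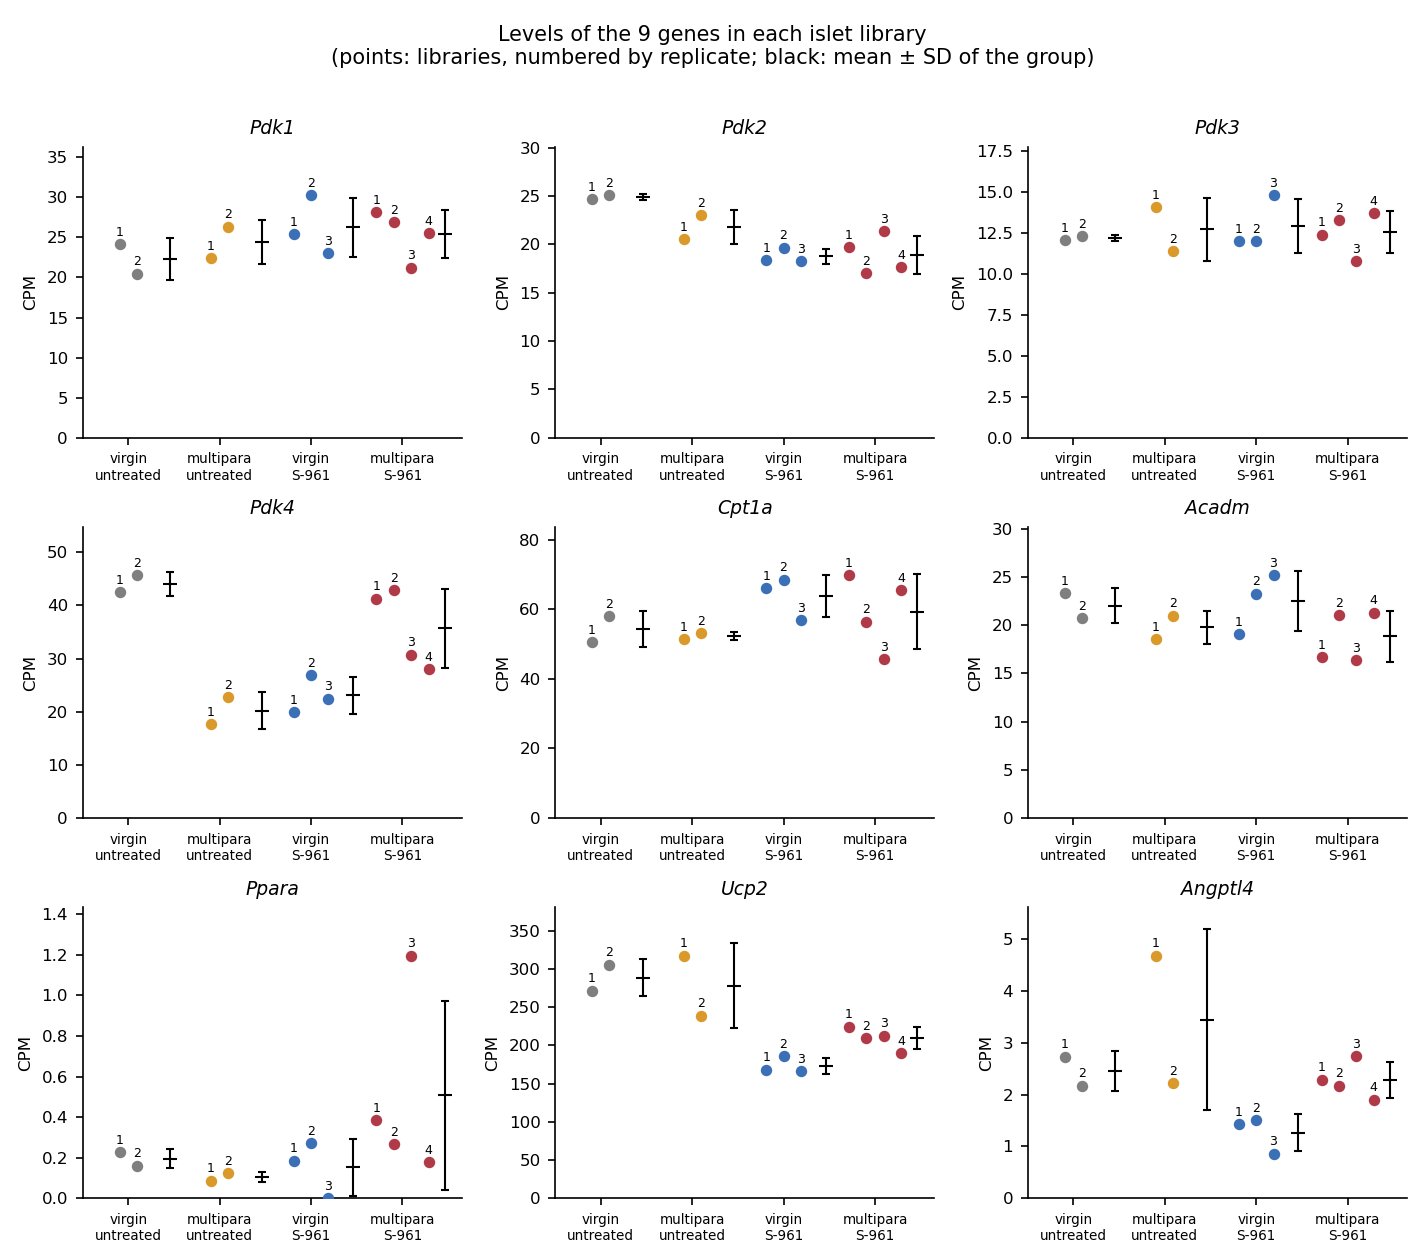
CPM of each of the 9 genes (y axis, from 0) in the 4 groups (x axis), with 1 point per library numbered by replicate and the group's mean ± SD in black. *Ucp2* is lower in the 7 S-961 libraries than in the 4 untreated ones, *Pdk4* is high in untreated virgin and multipara S-961 libraries, and *Ppara* stays at or below 1.19 CPM.

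No 2 of the 9 genes lie on the same chromosome. On GRCm38, *Pdk4* (ENSMUSG00000019577) spans chr6:5483351-5496309 on the minus strand, *Ucp2* (ENSMUSG00000033685) chr7:100493337-100502020 on the plus strand and *Pdk2* (ENSMUSG00000038967) chr11:95026258-95041354 on the minus strand. The others are *Pdk1* (ENSMUSG00000006494) at chr2:71873224-71903858, *Cpt1a* (ENSMUSG00000024900) at chr19:3322334-3385733 and *Ppara* (ENSMUSG00000022383) at chr15:85734983-85802819 on the plus strand. *Pdk3* (ENSMUSG00000035232) at chrX:93764607-93832201, *Acadm* (ENSMUSG00000062908) at chr3:153922357-153944632 and *Angptl4* (ENSMUSG00000002289) at chr17:33773750-33781830 are on the minus strand. The stretch before the annotated start of *Pdk4*, *Ucp2* and *Pdk2* is shown because they were the members called in at least 1 comparison. The sequences are from RefSeq (GRCm38.p6), run 5′ to 3′ on the gene's strand, and stop before the annotated start. Capitals mark a motif that was found.

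Pdk4, chr6:5496310-5496528, minus strand: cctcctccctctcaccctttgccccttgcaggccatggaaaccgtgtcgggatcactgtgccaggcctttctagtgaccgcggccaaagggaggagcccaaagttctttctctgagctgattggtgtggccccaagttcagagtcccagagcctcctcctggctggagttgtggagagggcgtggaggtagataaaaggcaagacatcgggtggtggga

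Ucp2, chr7:100493108-100493336, plus strand: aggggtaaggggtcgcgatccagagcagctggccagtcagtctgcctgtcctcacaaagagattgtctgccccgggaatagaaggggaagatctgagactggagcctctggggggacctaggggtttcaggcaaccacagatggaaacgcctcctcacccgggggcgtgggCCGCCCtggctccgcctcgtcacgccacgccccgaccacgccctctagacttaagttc

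Pdk2, chr11:95041372-95041621, minus strand: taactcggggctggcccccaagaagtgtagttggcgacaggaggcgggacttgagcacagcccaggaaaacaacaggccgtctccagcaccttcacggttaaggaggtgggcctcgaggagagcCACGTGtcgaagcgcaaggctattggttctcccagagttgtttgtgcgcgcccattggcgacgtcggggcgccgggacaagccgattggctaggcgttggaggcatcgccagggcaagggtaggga

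Of the 9 genes, 8 had a window in the RefSeq table, 10 windows in all, and *Angptl4* had none. The 250 bases before each start were searched on both strands for 6 motifs. The PPAR-RXR element, a pair of AGGTCA copies in a row with any single base between them, was in 0 of the 10 windows and in 0.03348% of all 32851 windows. The forkhead letters GTAAACA were also in 0 of the 10 windows and in 3.166% of all windows. The single half-site AGGTCA was in the *Cpt1a* and *Acadm* windows and in 14.02% of all windows. The GC box GGGCGG, marked in *Ucp2* on the opposite strand, was also in windows of *Pdk1*, *Pdk3*, *Cpt1a* and *Ppara*, and in 32.74% of all windows. The E-box CACGTG, marked in *Pdk2*, was in 6.021% of all windows. That E-box reads the same on both strands and holds the letters ACGTG on each, which accounts for both matches to ACGTG in *Pdk2*. The letters ACGTG were also in the *Pdk3* window, and in 16.57% of all windows. The *Pdk4* window held none of the 6 motifs. These matches describe letters and not binding.

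With S-961, 2 of the 8 members that could be tested were lower and 0 were higher. *Ucp2* fell by 0.58 on the log2 scale and *Pdk2* by 0.34, while *Pdk1*, *Pdk3*, *Pdk4*, *Cpt1a*, *Acadm* and *Angptl4* did not pass the test. The comparison set the 7 S-961 libraries against the 4 untreated ones by treatment alone, and so does not use the parity labels. The 2 called members stand beside 54.8% of all 16785 genes tested, and the 2 lower ones beside 27.4% called lower. The median log2 fold change was -0.10 over the 8 members and -0.00 over all genes. *Ppara* was too low to be tested here and in both parity comparisons.

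*Ucp2* was at 272 and 306 CPM in untreated virgin 1 and 2 and at 317 and 239 CPM in untreated multipara 1 and 2. With S-961 it was at 168, 185 and 167 CPM in virgin 1 to 3 and at 225, 210, 213 and 190 CPM in multipara 1 to 4. Every S-961 library was below every untreated one. The log2 fold change was -0.58 (SE 0.11, adjusted p = 0.00078), a decrease by 33.3%. *Ucp2* was the only 1 of the 8 members whose S-961 and untreated libraries did not overlap, beside 37.9% of all genes. The call held without each library in turn, with adjusted p from 0.00049 to 0.0039. Part of the *Ucp2* locus is shared with *Dnajb13* on the opposite strand, and the sources used here do not say whether reads were counted by strand, although the kit keeps it.

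*Pdk2*, a kinase that most tissues express, was at 24.6 and 25.1 CPM in untreated virgin 1 and 2 and at 20.5 and 23.0 CPM in untreated multipara 1 and 2. The 7 S-961 libraries had a lowest value of 17.0, a median of 18.3 and a highest value of 21.4 CPM. Multipara S-961 3, the highest of these, was above untreated multipara 1, so that the groups overlapped. The log2 fold change was -0.34 (SE 0.09, adjusted p = 0.0058). *Pdk2* overlaps the antisense gene *Gm11513*.

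*Angptl4* was at 2.73 and 2.17 CPM in untreated virgin 1 and 2 and at 4.68 and 2.22 CPM in untreated multipara 1 and 2. With S-961 it was at 1.43, 1.51 and 0.86 CPM in virgin 1 to 3 and at 2.29, 2.17, 2.75 and 1.90 CPM in multipara 1 to 4. The virgin S-961 libraries were below all others, while of multipara S-961 libraries 1 and 3 lay among the untreated ones and 2 and 4 just below all of them. The log2 fold change was -0.71 (SE 0.32, adjusted p = 0.077), and it passed the threshold with parity as a term (-0.81, adjusted p = 0.023) and without multipara S-961 3 (-0.85, adjusted p = 0.036). Untreated multipara 1, the highest library, also had the highest sum of the 5 macrophage markers, 684 CPM against 64.1 to 165 CPM elsewhere, and of the 5 lymphocyte markers, 261 CPM against 8.13 to 41.7 CPM. Without this library the log2 fold change was -0.39 (adjusted p = 0.33), and the part of these cell types was not tested.

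The other members moved by less. *Cpt1a*, the gate of mitochondrial fatty acid entry, was at 50.6 to 58.0 CPM in the 4 untreated libraries and at 45.6 to 69.7 CPM, median 65.4, in the 7 S-961 libraries. Its log2 fold change was 0.16 (SE 0.11, adjusted p = 0.22), and without multipara S-961 3, the lowest library, 0.22 (adjusted p = 0.036). *Pdk1*, a kinase induced by low oxygen, had a log2 fold change of 0.10 (SE 0.11, adjusted p = 0.42), with 20.5 to 26.3 CPM in untreated and 21.2 to 30.3 CPM in S-961 libraries. *Acadm* was at 18.6 to 23.3 CPM without and 16.3 to 25.2 CPM with S-961, and its log2 fold change was -0.07 (SE 0.12, adjusted p = 0.62). *Pdk3* was at 11.4 to 14.1 CPM and 10.8 to 14.8 CPM, with a log2 fold change of -0.01 (SE 0.10, adjusted p = 0.93). The S-961 range took in the whole untreated range for both genes. *Pdk4* had a log2 fold change of -0.12 (SE 0.27, adjusted p = 0.72), and is described by group below.

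*Ppara* was read at 0 to 47 counts per library. It was at 0.23 and 0.16 CPM in untreated virgin 1 and 2 and at 0.087 and 0.12 CPM in untreated multipara 1 and 2. With S-961 it was at 0.19 and 0.27 CPM in virgin 1 and 2 and had 0 counts in virgin 3, which allows up to 0.0995 CPM by a limit of 3 counts, for counting error only. In multipara S-961 1 to 4 it was at 0.39, 0.27, 1.19 and 0.18 CPM. Multipara S-961 3 stood alone above the rest. The receptor was detectable in 10 of the 11 libraries, at a level where counting error is large.

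**Figure D2:**
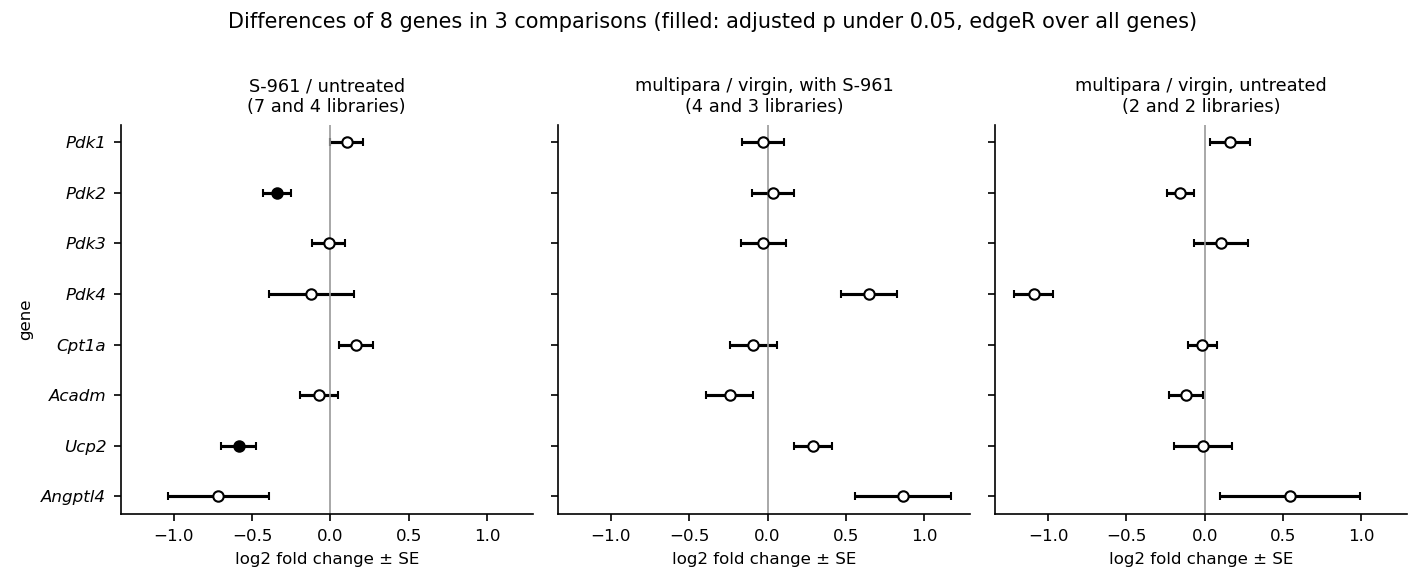
Log2 fold change ± SE (x axis) of the 8 genes tested (y axis) for S-961 against untreated, and for multipara against virgin with and without S-961. Filled points have an adjusted p under 0.05, which holds for *Pdk2* and *Ucp2* with S-961 and for none in the parity comparisons, where *Pdk4* is at 0.65 with S-961 and at -1.09 without it.

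The scale matters to the S-961 comparison, since insulin RNA filled less of each S-961 library. Without TMM, by total counts only, the median log2 fold change of all genes moved to 0.53, and the calls split into 8760 higher and 1761 lower genes, against 4607 and 4592 with TMM. On that scale *Ucp2* was at -0.06 (adjusted p = 0.75) and *Pdk2* at 0.20 (adjusted p = 0.17), both under the median of all genes. *Pdk1* at 0.64, *Cpt1a* at 0.69, *Pdk3* at 0.51 and *Acadm* at 0.45 were then called higher (adjusted p = 0.00016, 0.00012, 0.0014 and 0.0024). The difference also moved with transcript length. The median log2 fold change of all genes was -0.99 for transcripts under 1 kb, -0.36 from 1 to 2 kb, 0.00 from 2 to 4 kb and 0.31 over 4 kb. With the trend over length taken out, an alternative added after this was seen, *Ucp2* was at -0.75 (adjusted p = 0.00017) and *Pdk2* at -0.20 (adjusted p = 0.15), which ends the *Pdk2* call.

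*Pdk4* differed between the parity labels in opposite directions with and without S-961. The direction with S-961, and with it the opposite signs, rests on labels under which *Lrrc55* and *Matn2* ran opposite to the paper's report. *Pdk4* was at 42.5 and 45.6 CPM in untreated virgin 1 and 2 and at 17.7 and 22.7 CPM in untreated multipara 1 and 2. With S-961 it was at 19.9, 26.9 and 22.4 CPM in virgin 1 to 3 and at 41.3, 42.8, 30.7 and 28.0 CPM in multipara 1 to 4. Both untreated virgin libraries were above both untreated multipara libraries, and with S-961 every library labelled multipara was above every library labelled virgin. Untreated multipara and virgin S-961 libraries shared a low range, 17.7 to 26.9 CPM, and all libraries of the other 2 groups were above it.

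In untreated islets, *Pdk4* was lower in multipara by 1.09 on the log2 scale (SE 0.13, n = 2 and 2). It did not pass the test over all genes (adjusted p = 0.72), where edgeR called 0 of 15812 genes, 0% of those tested. At an unadjusted p under 0.05 there were 889 genes, and DESeq2 called 54, *Pdk4* among them (adjusted p = 5.48e-06). Without untreated multipara 1 or 2, the adjusted p for *Pdk4* was 0.017 and 0.00034, and without virgin 1 or 2 it was 0.9999 and 0.9995. The lone library is then assumed to vary like the others. *Pdk4* and *Pdk2* were 2 of the 8 members whose groups did not overlap, both lower in multipara, beside 36.5% of all genes. *Pdk2* was lower by 0.16 (SE 0.09, adjusted p = 0.72).

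With S-961, the sign was turned: *Pdk4* was higher in the libraries labelled multipara by 0.65 on the log2 scale (SE 0.18, n = 4 and 3). It did not pass the test over all genes (adjusted p = 0.31), where edgeR again called 0 of 16784 genes, 0% of those tested. At an unadjusted p under 0.05 there were 1630 genes, and DESeq2 called 348, without *Pdk4* (adjusted p = 0.083). Without multipara S-961 4, the library that stood with virgin S-961 in its marker genes, *Pdk4* was higher by 0.75 (adjusted p = 0.056), and edgeR called 525 genes. Leaving out virgin S-961 1 gave 0.55, the smallest value over all libraries left out.

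The difference between these parity differences was 1.72 on the log2 scale for *Pdk4* (SE 0.28), with an unadjusted p of 8.22e-05 and an adjusted p of 0.37 in the model of all 11 libraries. This interaction was called for 0 of 17996 genes by edgeR, 0% of those tested, with 1179 at an unadjusted p under 0.05 and 88 called by DESeq2. *Pdk4* passed in DESeq2 (adjusted p = 0.00029), with no filter on low counts (adjusted p = 0.034) and without multipara S-961 4 (1.82, adjusted p = 0.029). The other 8 members had interaction values with adjusted p from 0.83 to 0.98. Within the libraries labelled virgin, *Pdk4* fell with S-961 by 0.96 (SE 0.20, adjusted p = 0.0040), beside 36.5% of genes called, and by total counts only the value was -0.49 (adjusted p = 0.054). Within those labelled multipara it rose by 0.77 (SE 0.20, adjusted p = 0.012), beside 37.6% called, and the call was lost without untreated multipara 1 (0.60, adjusted p = 0.13). These comparisons share libraries and are 1 pattern seen from several sides, which rests on the parity labels of the S-961 libraries. By the same labels the interaction was -6.76 for *Lrrc55* (adjusted p = 0.37) and -2.52 for *Matn2* (adjusted p = 0.44).

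Genes of other cell types also differed between the labels. The 5 α cell markers, led by the glucagon gene, followed the order of *Pdk4* without overlap in both treatments, with sums of 50018 and 57187 CPM in untreated virgin and 25508 and 37898 CPM in untreated multipara libraries, and of 14188 to 16038 CPM in virgin S-961 and 16493 to 24929 CPM in multipara S-961 libraries. The 3 δ cell markers summed to 5303 and 6339 CPM in untreated virgin and to 3345 and 4001 CPM in untreated multipara libraries, and overlapped with S-961. The 5 cycling cell markers summed to 248, 228, 108 and 8.41 CPM in multipara S-961 1 to 4 and to 8.93, 23.7 and 7.73 CPM in virgin S-961 1 to 3. In untreated islets they were at 13.3 and 9.54 CPM in virgin 1 and 2 and at 75.1 and 5.05 CPM in multipara 1 and 2, so that multipara 1, the lowest library for *Pdk4*, was the highest here. The 6 stromal markers summed to 128 to 275 CPM in multipara S-961 and to 64.3 to 70.9 CPM in virgin S-961, with no overlap. The 8 acinar markers summed to 3633 to 10107 CPM in multipara S-961 and to 1455 to 5561 CPM in virgin S-961. With the acinar level as a covariate, added after it was seen, the *Pdk4* difference was 0.42 (adjusted p = 0.9998). That was the lowest adjusted p of all 17428 genes in this fit and 0 passed, so it cannot decide on the part of acinar cells. The part of α, δ, cycling and stromal cells in the *Pdk4* values was not tested.

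**Figure D3:**
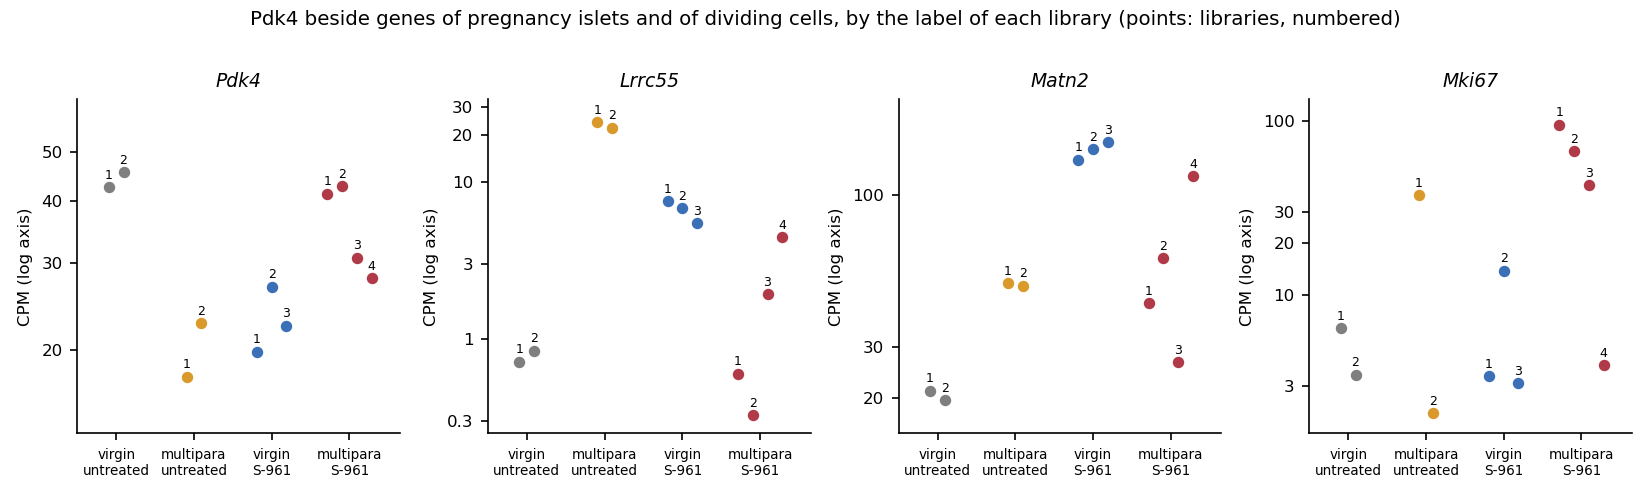
CPM on a log axis (y axis) of *Pdk4*, *Lrrc55*, *Matn2* and *Mki67* in the 4 labelled groups (x axis), with 1 numbered point per library. *Pdk4* is at 17.7 to 26.9 CPM in untreated multipara and virgin S-961 libraries and at 28.0 to 45.6 CPM in the other groups, while *Lrrc55* has its lowest values, 0.33 to 1.93 CPM, in untreated virgin 1 and 2 and multipara S-961 1 to 3.

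With S-961, 2 further members did not overlap between the labels and were higher in multipara, so that 3 of the 8 tested stood beside 8.87% of all genes. *Angptl4* was higher by 0.87 (SE 0.31, adjusted p = 0.39), and *Ucp2* by 0.29 (SE 0.12, adjusted p = 0.49). Without multipara S-961 4 these values were 0.95 (adjusted p = 0.18) and 0.34 (adjusted p = 0.22). In untreated islets *Angptl4* was at 0.55 (SE 0.45, adjusted p = 0.77) and *Ucp2* at -0.01 (SE 0.19, adjusted p = 0.99), with overlap in both. The other 4 members without S-961 ran from -0.12 for *Acadm* to 0.16 for *Pdk1*. *Pdk1*, *Pdk2*, *Pdk3* and *Cpt1a* had log2 fold changes from -0.09 to 0.03 with S-961, each smaller than its SE. *Acadm* was at -0.24 (SE 0.15, adjusted p = 0.64). The median over the 8 members was 0.00 with S-961 and -0.01 without it, against 0.00 and 0.02 over all genes.

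The S-961 difference was also fitted within each parity label. In virgin libraries, *Ucp2* fell by 0.76 (SE 0.15, adjusted p = 0.0031) and *Pdk2* by 0.43 (SE 0.13, adjusted p = 0.029). With *Pdk4*, 3 of 9 members were called, all lower, beside 36.5% of genes called either way and 3172 of 17996 called lower. By total counts only, *Ucp2* was at -0.29 (adjusted p = 0.26) and *Pdk2* at 0.04 (adjusted p = 0.88) in virgin libraries, neither past the threshold. In multipara libraries, *Ucp2* fell by 0.46 (SE 0.14, adjusted p = 0.025), and *Pdk2* at -0.25 did not pass (SE 0.13, adjusted p = 0.14). The *Pdk2* call in virgin libraries was lost without any 1 of their 5 libraries, with adjusted p from 0.051 to 0.14. The *Ucp2* call in multipara libraries was lost without multipara S-961 4 (adjusted p = 0.052) or untreated multipara 1 (-0.24, adjusted p = 0.34), and by total counts only (0.10, adjusted p = 0.65). Its interaction, the test of a difference between the labels, was 0.29 (SE 0.21, adjusted p = 0.85).

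Other genes of these pathways were described from 9 lists of 125 genes, of which 112 could be tested against S-961. Of these, 25 were higher, 43 were lower and 44 did not pass, beside 54.8% of all genes called and 27.4% called lower. In the parity comparisons with and without S-961 and in the interaction, 0 of 111, 109 and 115 listed genes passed in edgeR. At an unadjusted p under 0.05 there were 13, 6 and 13 listed genes. Over all genes there were 1630 of 16784, 889 of 15812 and 1179 of 17996. DESeq2 called 3, 0 and 0 listed genes, beside 348, 54 and 88 genes in all. Among mitochondrial fatty acid oxidation genes, 4 of 31 were higher and 14 lower with S-961, with a median log2 fold change of -0.25, and by total counts only 11 were higher and 5 lower. *Acot13*, an acyl-CoA thioesterase, fell from 54.5 ± 5.55 CPM (SD, n = 4) to 15.7 ± 2.13 CPM (SD, n = 7), which is -1.84 on the log2 scale (SE 0.11, adjusted p = 3.08e-07). *Eci1*, the isomerase for unsaturated fatty acids, changed by -1.25, and *Etfb*, a subunit of the electron carrier behind the acyl-CoA dehydrogenases, by -1.23. The enzymes that activate fatty acids with CoA went the other way in *Acsl4*, which rose by 0.81 from 20.5 ± 1.62 to 37.0 ± 3.44 CPM (SD, n = 4 and 7), and in *Acsl6*, which rose by 0.73. *Acad11*, an acyl-CoA dehydrogenase, rose by 0.59.

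Calls in this list were spread unevenly over transcript length. Of its genes under 1 kb, 2 of 2 were lower, and 7 of 8 were lower from 1 to 2 kb, 4 of 14 from 2 to 4 kb and 1 of 7 over 4 kb. Over all genes the shares called lower were 59.1%, 41.8%, 25.1% and 11.7% in the same order. With the length trend taken out, 5 of the 31 were higher and 15 lower. *Acot13* was then at -0.75, *Eci1* at -0.61 and *Etfb* at -0.40, with *Acsl4* at 0.52 and *Acsl6* at 0.39. The members themselves lay between 2047 bases in *Acadm* and 5185 bases in *Pdk1*, lengths at which the median of all genes was 0.00 or 0.31.

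**Figure D4:**
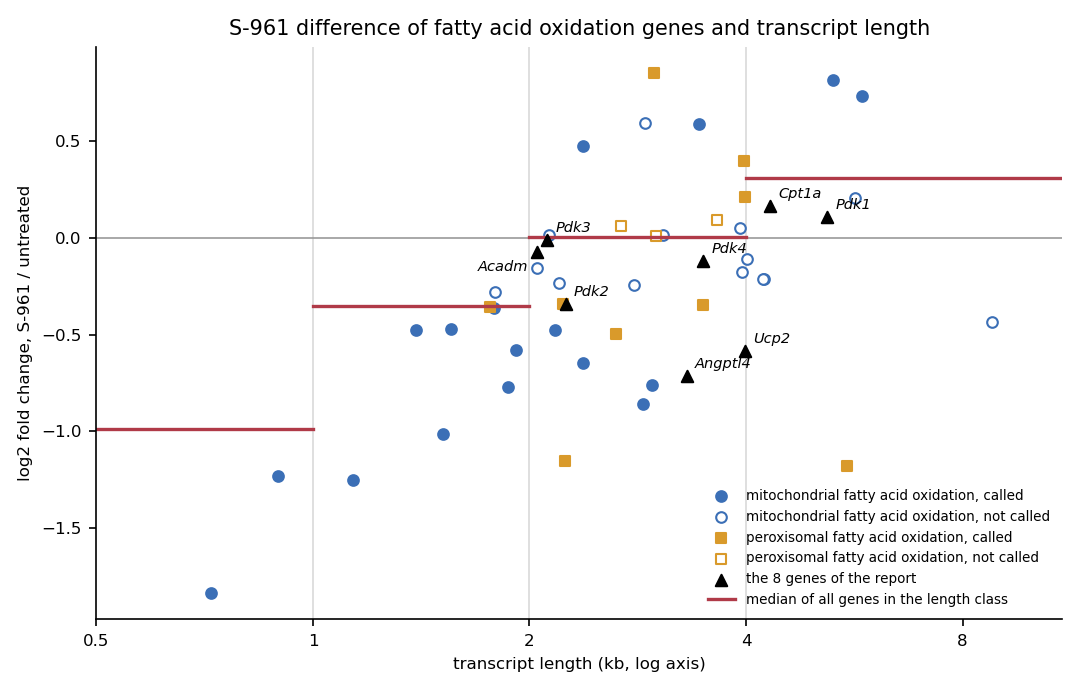
Log2 fold change of S-961 against untreated (y axis) by transcript length in kb (x axis, log scale) for genes of mitochondrial (circles) and peroxisomal (squares) fatty acid oxidation, filled where the adjusted p was under 0.05, with 8 members as triangles and the median of all genes in each length class as a red line. The red line climbs from -0.99 under 1 kb to 0.31 over 4 kb, and *Ucp2* and *Angptl4* lie below it at -0.58 and -0.71.

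Of 12 peroxisomal oxidation genes tested, 3 were higher and 6 lower, with a median of -0.17, and by total counts only 6 were higher and 1 lower. *Ehhadh*, the bifunctional enzyme of peroxisomal β-oxidation, rose by 0.85 from 12.0 ± 1.75 to 22.2 ± 4.30 CPM (SD, n = 4 and 7), and the oxidase *Acox3* rose by 0.39. *Acox3* did not pass with the length trend taken out. *Pex11a*, which drives peroxisome division, fell by 1.15, the transporter *Abcd2* by 1.18 and the sterol carrier and thiolase *Scp2* by 0.50, with *Scp2* at 0.03 and *Abcd2* at -0.61 by total counts only (adjusted p = 0.76 and 0.18). Of the 5 ketone body genes, 2 were lower and 0 higher, and by total counts only 1 was lower and 3 higher. *Acat1*, the mitochondrial acetoacetyl-CoA thiolase, was at -0.30, and at 0.22 by total counts only.

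The RNA of the complex that the Pdk kinases switch off, and of genes around it, was measured too. Of 14 genes of pyruvate dehydrogenase and pyruvate supply, 4 were higher and 5 lower, with a median of -0.01, and by total counts only 9 were higher and 1 lower. *Pdha1*, the subunit that the kinases phosphorylate, rose by 0.65 from 71.8 ± 5.78 to 116 ± 16.5 CPM (SD, n = 4 and 7, adjusted p = 0.00034). *Pdpr*, a regulatory subunit of the opposing phosphatase, rose by 1.11, and *Dld*, the E3 subunit, by 0.56. Lactate dehydrogenase genes *Ldha* and *Ldhb* fell by 0.999 and 0.83, and the pyruvate carrier subunit *Mpc2* by 0.71. Of these, *Ldha* and *Mpc2* passed neither with the length trend taken out nor by total counts only. *Ldha* also ran widely in untreated islets, from 14.8 to 60.7 CPM.

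Of 9 genes tested among PPAR receptors and their partners, 6 were higher and 2 lower, with a median of 0.49, and with the length trend taken out 2 were higher and 2 lower. The coactivators *Ppargc1a* and *Ppargc1b* rose by 1.17 and 1.12 at low levels, with *Ppargc1a* at 1.59 ± 0.63 CPM with S-961 (SD, n = 7), and the corepressor *Nrip1* rose by 0.83. With the length trend taken out, *Ppargc1b* passed and *Ppargc1a* and *Nrip1* did not. The partner receptors *Rxra* and *Rxrb* fell by 1.08 and 0.38, with *Rxrb* at 0.14 by total counts only. Of 13 PPAR targets outside oxidation, 3 were higher and 4 lower, with a median of -0.14 that was 0.42 by total counts only. *Plin2*, the coat of lipid droplets, fell by 1.26 from 30.4 ± 6.09 to 13.1 ± 1.96 CPM (SD, n = 4 and 7), and the fatty acid binding genes *Fabp5* and *Fabp4* fell by 1.17 and 0.84 while *Fabp3* rose by 0.92 and the fatty acid transporter *Slc27a1* by 0.27. *Fabp5* and *Fabp4* passed neither with the length trend taken out nor by total counts only.

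The enzyme that *Angptl4* inhibits fell with S-961. *Lpl*, lipoprotein lipase, was at 162 to 273 CPM in untreated and at 66.1 to 104 CPM in S-961 libraries, without overlap, a log2 fold change of -1.52 (SE 0.15, adjusted p = 6.38e-06). It stayed lower by total counts only (-0.97) and with the length trend taken out (-1.69). *Gpihbp1*, its anchor on capillaries, fell by 0.97, and of the *Angptl4* relatives *Angptl6* fell by 0.63 and *Angptl2* rose by 0.45, these 3 without passing once the length trend was taken out. In this list 1 of 7 genes was higher and 3 lower, by total counts only 2 were higher and 1 lower, and with the length trend taken out 0 were higher and 1 lower. Among 3 tested relatives of *Ucp2*, 1 was lower, the carrier *Slc25a14*, at -0.50 with TMM and 0.02 by total counts only.

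Genes known to be raised by low oxygen, as *Pdk1* is, gave no single direction, with 4 of 18 higher, 6 lower and a median of -0.03, and by total counts only 8 higher and 3 lower. *Vegfa*, the growth factor of blood vessels, rose by 0.99 from 221 ± 21.1 to 449 ± 46.6 CPM (SD, n = 4 and 7). *Ero1l*, an oxidase of protein folding, rose by 0.85 and the demethylase *Kdm3a* by 0.53. *Higd1a*, *Ankrd37* and *Ndrg1* fell by 1.82, 1.59 and 1.46. The largest changes within 1 parity label were *Ppargc1b* (1.89), *Ehhadh* (1.17), *Higd1a* (-2.33) and *Ndrg1* (-1.93) in virgin libraries, and *Cpt1b* (1.99), *Fabp3* (1.27), *Acot13* (-1.90) and *Ankrd37* (-1.56) in multipara libraries. *Cpt1b*, the muscle form of carnitine palmitoyltransferase, was at 0.35 ± 0.06 CPM (SD, n = 2) in untreated multipara and at 1.45 ± 0.35 CPM (SD, n = 4) in multipara S-961 libraries.

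Members were set beside all genes by the correlation of log2 CPM over the 11 libraries, after the mean of each treatment was subtracted, among 11287 genes. The libraries are shared by all genes, so these values describe the libraries. The genes most like *Pdk4* were *Fgf12* (r = 0.96), *Tubb4a* (r = 0.95) and *Bcam* (r = 0.95). *Ucp2* was most like *Rab11fip4* (r = 0.96), *Gpr162* (r = 0.93) and *Pkp3* (r = 0.92), and *Angptl4* most like *Spns2* (r = 0.98), *Cp* (r = 0.95) and *Ddx58* (r = 0.95). *Pdk2* was most like the transcription factor gene *Klf9* (r = 0.97), with *Rmnd5a* (r = 0.94) and *Nptx1* (r = 0.94). *Cpt1a* was most like *Hdac5* (r = 0.95), *Acadm* like *Rpp38* (r = 0.97), *Pdk1* like *Fech* (r = 0.89) and *Pdk3* like *Kbtbd4* (r = 0.95). Among the members themselves, the highest correlation was between *Ucp2* and *Angptl4* (r = 0.78) and the lowest between *Acadm* and *Angptl4* (r = -0.74), and *Pdk2* and *Pdk3* were also opposed (r = -0.73).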

How the data were processed

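Polyadenylated RNA of isolated islets was sequenced as stranded libraries. The authors deposited 1 table of expected counts per library, estimated per gene, and the submitters' processing notes name STAR, RSEM, GRCm38 and mm10 without versions. Expected counts were rounded to whole numbers, and 4449 to 5162 genes per library were not whole before that. All gene IDs were found in GENCODE M21 (GRCm38), from which names, positions and transcript lengths were taken. Genes were kept by filterByExpr (minimum count 10, minimum total 15), scaled by TMM and tested with edgeR 4.0.16 in R 4.3.3 at an adjusted p of 0.05. S-961 against untreated and both parity comparisons had a fit of their own libraries, and the contrasts within a parity label and the interaction came from a model of 4 groups. SE is the log2 fold change divided by the square root of F. Alternatives were DESeq2 1.42.0, its size factors in edgeR, total counts, no filter, a replicate block, parity as a term and each library left out. A transcript length offset and an acinar covariate were added after the data were seen. The members and lists were chosen with earlier results of these data known. All members were named, and of each pathway list up to 3 genes each way with the largest change among those with an adjusted p under 0.05 and a mean of at least 1 CPM, with up to 2 each way over all lists in the other comparisons. For likeness, the 3 genes with the highest correlation were taken (prior count 2, mean log2 CPM of at least 2). Some genes that this rule named are not reported here. Code was tested on simulated data.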

Additional observations from a re-analysis of the deposited data

Results flagged for a closer look

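*Ppara* was at 1.19 CPM in multipara S-961 3, far above the other 6 S-961 libraries, whose highest was 0.39 CPM. The gap passed Dixon's test, which was applied to 27 groups of values and flags about 1 in 20 by chance. That library also had the highest sum of stromal markers, 275 CPM, and the part of this in the *Ppara* value was not tested.

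For *Pdk4*, the parity difference with S-961 minus that without it was 1.72 on the log2 scale. In untreated islets both libraries labelled multipara were below both labelled virgin, and with S-961 all 4 labelled multipara were above all 3 labelled virgin. The interaction had an adjusted p of 0.37 in edgeR and rests on parity labels whose check genes did not keep 1 order across treatments.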

How the results depend on the processing

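S-961 against untreated called 8256 to 9830 genes without 1 library each and 7796 with the replicate block. The other counts moved. For parity with S-961, DESeq2 called 348 genes, the replicate block 368, and leaving out 1 library gave 0 to 525 (525 without multipara S-961 4). For untreated parity, DESeq2 called 54, no filter 3, and leaving out 1 library 0 to 1738 (53 without multipara 1, 1738 without multipara 2). Within virgin labels, leaving out 1 library gave 3053 to 7466 genes (3503 and 3053 without untreated virgin 1 and 2), and within multipara 3618 to 7451 (3618 without untreated multipara 1). For the interaction, DESeq2 called 88, no filter 4, the replicate block 35, and leaving out 1 library 0 to 45 (45 without multipara S-961 4, 32 without untreated multipara 2). Replicate numbers were not taken to pair the libraries, since same-numbered S-961 libraries correlated at 0.11, -0.03 and 0.01. Untreated libraries correlated at 0.26 where the numbers were the same and at -0.26 where they differed. With 2 libraries in each untreated group these values mirror each other, so they cannot decide on pairing. With the replicate block, parity without S-961 called 0 genes, the virgin contrast 5850, the multipara contrast 5543, and *Pdk4* passed in the interaction (1.83, adjusted p = 0.035), while the calls of *Ucp2* within multipara (-0.39, adjusted p = 0.13) and *Pdk2* within virgin (-0.45, adjusted p = 0.062) were lost.

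Of 338 values under other settings, 287 kept direction and side of the threshold and 29 changed sign. Of 467 with 1 library left out, 421 did and 30 changed sign. By the length offset, S-961 against untreated gave *Pdk1* -0.18, *Pdk3* 0.16, *Cpt1a* -0.042 and *Acadm* 0.12, and within multipara -0.28, 0.11, -0.074 and 0.085. *Pdk1* was -0.080 within virgin, *Pdk3* 0.024 for parity with S-961 and *Ucp2* 0.0090 for untreated parity. By total counts, *Pdk2*, *Pdk3*, *Pdk4* and *Acadm* were 0.20, 0.51, 0.41 and 0.45. Within virgin, *Pdk2* was 0.040 and *Ppara* 0.13, and within multipara *Pdk2* 0.34, *Pdk3* 0.49, *Acadm* 0.46 and *Ucp2* 0.10. For parity with S-961, *Pdk1* was 0.020 and *Pdk3* 0.032, and *Cpt1a* was 0.019 in the interaction. *Pdk3* was 0.029 with no filter. With the acinar covariate *Pdk2* was -0.010 and *Pdk3* 0.12. *Acadm* was -0.013 within virgin with the block, and *Pdk1* -0.0015 within multipara by DESeq2 size factors.

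With 1 library left out, values that changed sign ranged, for S-961 against untreated, from -0.051 to 0.058 for *Pdk3* and -0.32 to 0.084 for *Pdk4*. For parity with S-961 they ran from -0.12 to 0.085 for *Pdk1*, -0.048 to 0.092 for *Pdk2*, -0.083 to 0.074 for *Pdk3* and -0.18 to 0.0038 for *Cpt1a*. For untreated parity they ran from -0.10 to 0.26 for *Pdk3*, -0.11 to 0.075 for *Cpt1a*, -0.27 to 0.19 for *Ucp2* and -0.14 to 0.98 for *Angptl4*. Within virgin they ran from -0.036 to 0.11 for *Pdk3*, -1.03 to 0.22 for *Ppara* and -0.080 to 0.11 for *Acadm*, and within multipara from -0.10 to 0.13 for *Pdk1* and -0.21 to 0.10 for *Pdk3*. In the interaction they ran from -0.28 to 0.04 for *Pdk3*, -0.17 to 0.016 for *Cpt1a* and -0.12 to 0.97 for *Angptl4*. Except where the setting itself removed libraries, the cause of these changes was not tested. Depth limits *Ppara*, with 0 to 47 counts, and *Angptl4*, with 26 to 108.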
